A study of Mus musculus with 6 samples.

Results

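Immediate early genes are genes that a cell transcribes within minutes of a stimulus. In this account they are a list of 32 genes known as activity-induced, taken by gene name from a deposited table of 35148 mouse genes. All 32 were found in it, and all 32 passed the filter on low counts that left 20865 genes for testing. The RNA came from mouse hypothalamus, from the paraventricular nucleus (PVH), whose neurons secrete hormones and control appetite. Every mouse carried loxP-flanked Ruvbl2 alleles (Ruvbl2fl/fl), so the controls carry the floxed gene too, and age and sex are not given in the labels. The PVH was injected with a serotype 2 adeno-associated virus, which was AAV2-GFP (GFP alone) for 3 samples and AAV2-Cre-GFP (GFP and the recombinase Cre) for the other 3. Tissue was taken after 8 weeks, and RNA of the tissue was sequenced, with no sorting of infected cells described. The promoter that drives Cre and the number of animals per sample are not given in the labels. The series description asks how RUVBL2, an ATPase of chromatin remodelling and chaperone complexes, acts in synaptic plasticity. The comparison below is AAV2-Cre-GFP against AAV2-GFP. In neurons, calcium entry and cyclic AMP switch these genes on through kinases that act on the transcription factors CREB and SRF, which already sit on their promoters. Many of the products are themselves transcription factors, such as Fos and Jun proteins, which pair to form AP-1. Others act at synapses, or are phosphatases and RNA-binding proteins that end the response. Fos in particular is widely used in the hypothalamus as a marker of neurons that were recently active.

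The promoters of 5 members are printed here because DESeq2 (a second count test) called Junb, Npas4, Dusp1 and Gadd45g, and because Fos is the member most used as an activity marker. Each run holds the 250 bases before the annotated start of transcription, 5′ to 3′ on the gene's strand, from RefSeq (GRCm38.p6). They lie at chr8:84978749-84978998 (Junb, minus strand), chr12:85473640-85473889 (Fos, plus strand), chr19:4989972-4990221 (Npas4, minus strand), chr17:26508473-26508722 (Dusp1, minus strand) and chr13:51846425-51846674 (Gadd45g, plus strand). The gene models of Npas4 and Dusp1 in the deposited table start further upstream than in RefSeq, so the runs of both lie inside those models. Capitals mark TGACG (or CGTCA, the same letters on the other strand), TGACGTCA and TATAAA.
Junb: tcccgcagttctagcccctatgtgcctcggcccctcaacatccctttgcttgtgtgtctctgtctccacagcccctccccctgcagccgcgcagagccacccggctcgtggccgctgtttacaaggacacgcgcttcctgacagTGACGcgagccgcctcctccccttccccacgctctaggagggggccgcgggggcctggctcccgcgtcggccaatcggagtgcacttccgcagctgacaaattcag
Fos: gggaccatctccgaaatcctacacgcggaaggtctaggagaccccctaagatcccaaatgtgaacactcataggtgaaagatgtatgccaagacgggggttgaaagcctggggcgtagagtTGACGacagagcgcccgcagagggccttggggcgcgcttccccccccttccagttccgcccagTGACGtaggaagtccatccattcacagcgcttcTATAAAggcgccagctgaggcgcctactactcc
Npas4: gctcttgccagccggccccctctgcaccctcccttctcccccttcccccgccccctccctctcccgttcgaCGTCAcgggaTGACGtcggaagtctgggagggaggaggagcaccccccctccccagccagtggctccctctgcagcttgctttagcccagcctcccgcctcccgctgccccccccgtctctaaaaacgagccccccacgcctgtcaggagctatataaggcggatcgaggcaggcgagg
Dusp1: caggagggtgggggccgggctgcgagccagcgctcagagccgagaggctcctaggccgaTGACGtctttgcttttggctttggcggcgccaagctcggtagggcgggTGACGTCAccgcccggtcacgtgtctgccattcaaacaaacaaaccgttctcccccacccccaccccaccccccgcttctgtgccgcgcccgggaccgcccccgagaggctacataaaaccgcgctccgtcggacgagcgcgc
Gadd45g: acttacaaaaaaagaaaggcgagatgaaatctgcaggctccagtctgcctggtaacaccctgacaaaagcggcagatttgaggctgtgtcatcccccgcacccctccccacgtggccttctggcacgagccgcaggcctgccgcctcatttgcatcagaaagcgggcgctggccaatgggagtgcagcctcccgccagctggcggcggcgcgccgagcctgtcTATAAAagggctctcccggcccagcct

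The letters TGACG are the core of the cAMP response element, the site that CREB binds, whose full form is TGACGTCA. On either strand, TGACG was found before Junb 106 bases from the start, before Fos at 129 and 66 bases, and before Npas4 at 179 and 169 bases. Dusp1 holds the full TGACGTCA, which contains the core, at 143 bases and a further core at 191 bases. Gadd45g holds no TGACG in this window, and it and Fos hold TATAAA, searched on the gene's strand only, at 27 and 33 bases. RefSeq windows were matched for 25 of the 32 members. Of these, 17 (68%) hold TGACG in at least 1 of their windows, against 19.8% of the 27025 genes with a window of this length. TGACGTCA was found for 3 members (12%; Maff, Dusp1 and Arl4d) against 1.77% of genes, and the CArG box, the site of SRF, for 2 (8%; Egr2 and Zfp36) against 1.62%. The Egr site GCGNGGGCG was found for 10 members (40%) against 5.33%, TATAAA for 4 (16%) against 8.94%, and the AP-1 site, searched as TGANTCA with C or G in the middle, for 1 (4%) against 5.16%. A match describes letters in the sequence, and these counts take no account of base composition.

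Total counts ran from 41890769 to 54702785 per library. The level of Ruvbl2 itself did not separate the groups: it stood at 9.90, 7.36 and 8.72 FPKM (counts scaled by gene length and by library total) with AAV2-GFP and at 9.53, 9.10 and 9.51 FPKM with AAV2-Cre-GFP (log2 difference 0.077 ± 0.11, SE; edgeR adjusted p = 0.773). The deposited values are given per gene, so deleted and retained exons are not separated. Libraries are named below by their label only, as GFP-labelled or Cre-labelled. Whether libraries come from different animals is not stated in the labels, and the p-values then reflect only how these 6 libraries spread, which may be technical. Transcripts of other organs stood out in single libraries: 12 testis genes had a summed level of 573 CPM (counts scaled to a common library total) in GFP-labelled library 1, where the highest other library had 6.12 CPM. For the 15 kidney genes found in the table the sums were 1283 and 1419 CPM in Cre-labelled libraries 2 and 3, and the remaining 4 libraries lay at 188 to 251 CPM. Cre-labelled library 3 also had 212 CPM of 10 skeletal muscle genes, with no other library above 16.7 CPM, and the 5 pituitary genes in the table reached 31.8 CPM in GFP-labelled library 2, with 8.78 CPM the next highest value. These lists were written after such transcripts had been seen. Markers of PVH neurons (Sim1, Otp, Oxt, Avp, Crh, Trh and others, 10 genes) were present in every library: their summed CPM was 343, 759 and 813 for GFP and 287, 307 and 585 for Cre, in the order of library number. Within each group that order is also the order of Fos, and its part in the members' values was not tested.

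In the main test, edgeR's quasi-likelihood test with a threshold of 0.05 on the adjusted p, none of the 32 immediate early genes passed, while 0.00959% of all genes tested did (2 of 20865). The lowest adjusted p among the members was 0.0705, for Gadd45g. At an unadjusted p under 0.05, 9 members (28.1%) were higher in the Cre-labelled libraries, against 8.11% of all genes tested: Fos, Fosb, Junb, Egr1, Egr2, Npas4, Dusp1, Zfp36 and Gadd45g. In the other direction there was 1 member (3.12%), Crem, against 9.11% of all genes. The 3 Cre-labelled values all exceeded the 3 GFP-labelled values for 9 members (28.1%), against 14.1% of all genes tested, with Ier2 in place of Egr1. For none of the members were they all below, against 8.8% of all genes. DESeq2 gave 4 members as higher at its adjusted p of 0.05 (12.5%, against 3.12% of the genes it adjusted) and none as lower (4.91% of genes): Junb at 1.09e-05, Gadd45g at 0.000101, Dusp1 at 0.0208 and Npas4 at 0.0395. It gave Egr2 no adjusted p. The log2 difference was above 0 for 25 of 32 members (78.1%) and for 49.0% of all genes tested, and the median was 0.38 over the members and -0.0058 over all genes. In tissue RNA, fewer cells that express a gene and less RNA per cell cannot be told apart.

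**Figure D1:**
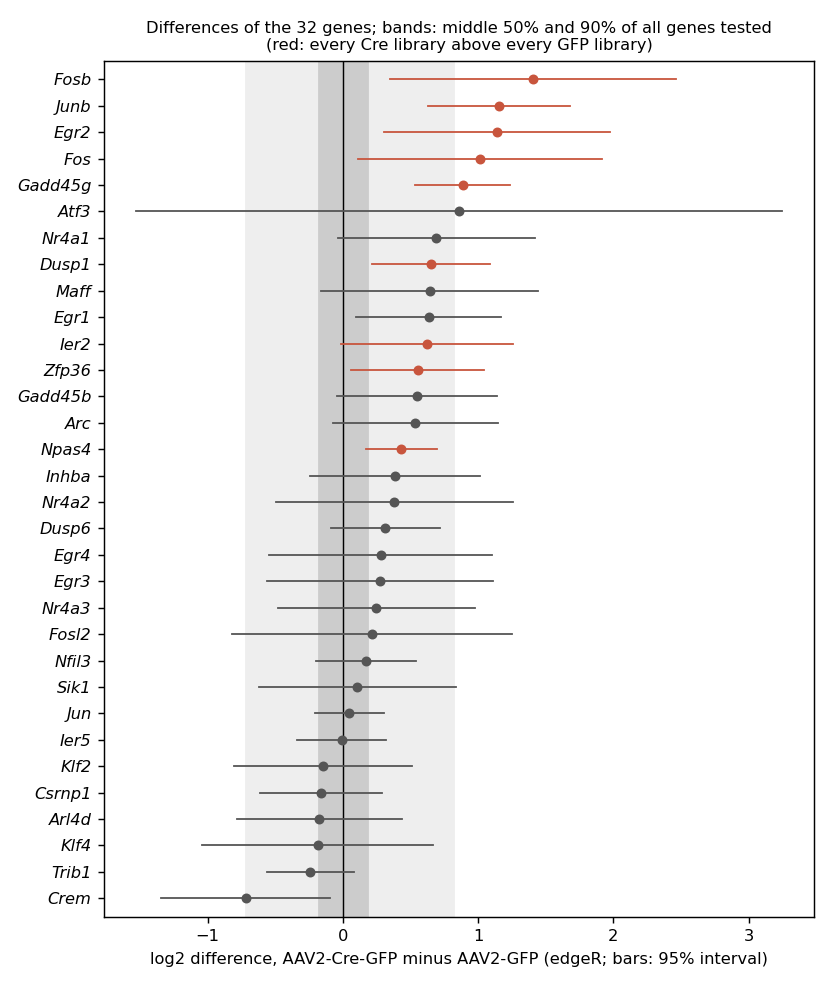
Log2 difference (Cre-labelled minus GFP-labelled, edgeR) of each of the 32 genes with its 95% interval; the dark and light bands hold the middle 50% and 90% of all 20865 genes tested. The 9 genes in red, whose groups do not overlap, lie between 0.43 (Npas4) and 1.41 (Fosb), and Crem lies lowest at -0.72.

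Of the 4 largest log2 differences, 3 were of AP-1 genes (Fosb, Junb and Fos). Fosb, whose truncated product accumulates in chronically stimulated neurons, stood at 0.561, 1.27 and 1.29 FPKM in GFP-labelled libraries 1 to 3 and at 1.41, 2.48 and 4.58 FPKM in Cre-labelled libraries 1 to 3. Junb, a Jun protein that dampens c-Jun activity, stood at 6.08, 8.68 and 9.44 FPKM against 13.5, 18.8 and 22.9 FPKM. Fos stood at 5.22, 14.1 and 14.9 FPKM against 15.5, 26.0 and 29.5 FPKM. For all 3 genes the groups did not overlap, GFP-labelled library 1 was the lowest of the 6 libraries and Cre-labelled library 3 the highest. The gaps between the groups differed in size: the nearest libraries were 9.44 and 13.5 FPKM for Junb but 14.9 and 15.5 FPKM for Fos and 1.29 and 1.41 FPKM for Fosb. Junb differed 2.23-fold, with a log2 difference of 1.16 ± 0.23 (SE; 95% interval 0.63 to 1.68; edgeR adjusted p = 0.0850). Fosb differed 2.65-fold (1.41 ± 0.46, SE; edgeR adjusted p = 0.187) and Fos 2.02-fold (1.02 ± 0.39, SE; edgeR adjusted p = 0.245). Single libraries moved both log2 differences: that of Fosb was 0.89 without Cre-labelled library 3, and that of Fos 0.67 without GFP-labelled library 1. Jun, which encodes c-Jun, had no such gap: it stood at 11.5, 14.7 and 14.5 FPKM against 13.4, 14.0 and 15.6 FPKM, a log2 difference of 0.046 ± 0.11 (SE) with a 95% interval of -0.21 to 0.30. Its gene model overlaps in part that of the antisense gene Junos, which had at most 81 counts in a library against at least 1862 for Jun. Fosl2, which encodes Fra-2, stood at 1.45, 3.09 and 2.89 FPKM against 1.68, 2.00 and 5.16 FPKM, so that Cre-labelled library 3 alone lay above the GFP-labelled range (log2 difference 0.22 ± 0.45, SE; edgeR adjusted p = 0.852). By position in the deposited table, Fos (ENSMUSG00000021250) lies at chr12:85473890-85477273, Fosb (ENSMUSG00000003545) at chr7:19302696-19310051 and Junb (ENSMUSG00000052837) at chr8:84976910-84978718.

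**Figure D2:**
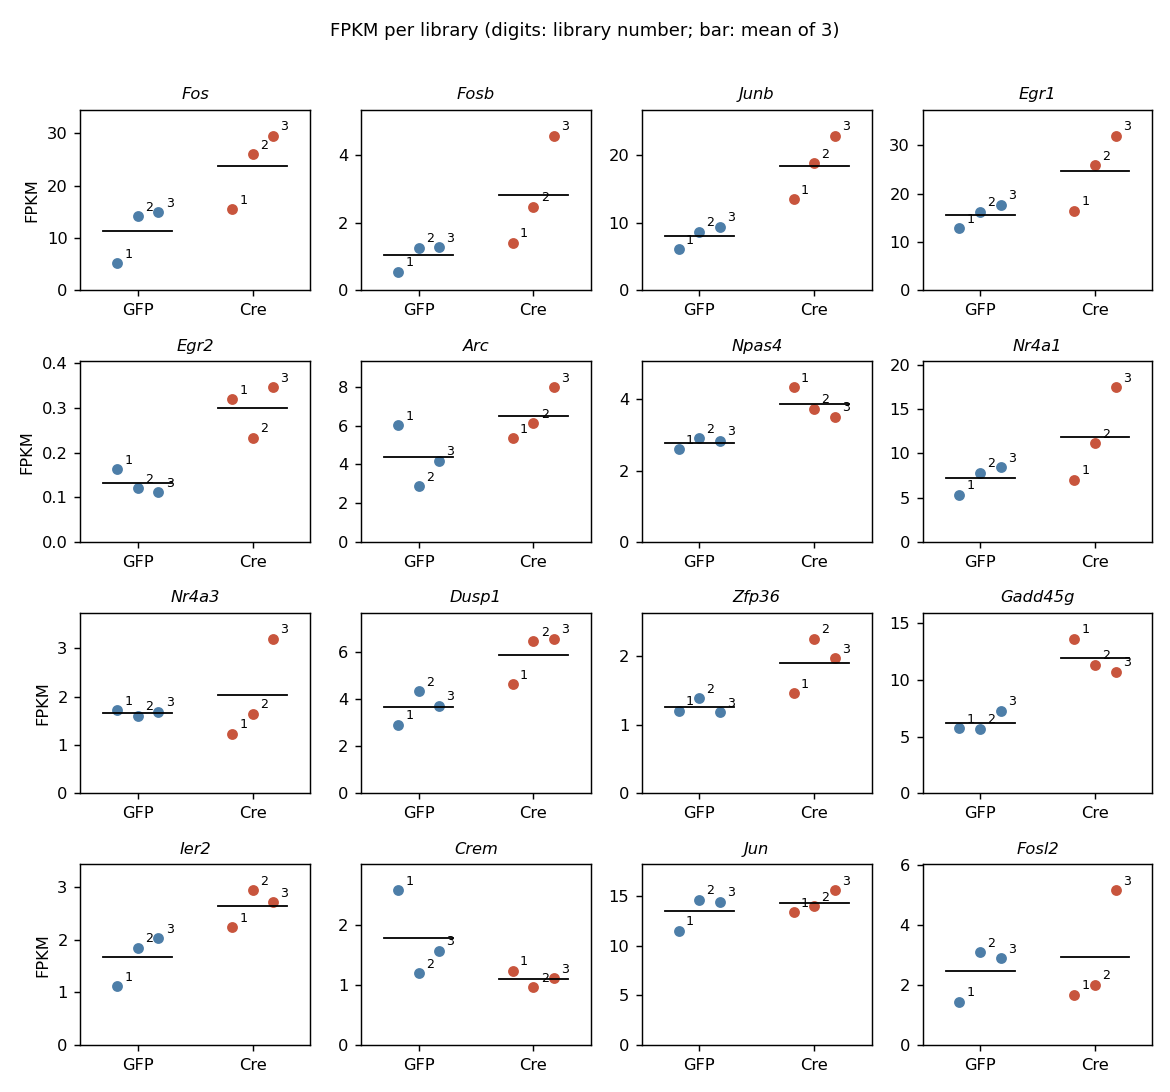
FPKM of 16 immediate early genes in each library; digits give the library number and bars the mean of 3. Junb, Gadd45g and, at low counts, Egr2 show the clearest gaps. Fos is lowest in GFP-labelled library 1 at 5.22 FPKM, and the high mean of Fosl2 with Cre rests on library 3.

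Of the Egr genes, zinc finger factors that take part in synaptic plasticity, Egr1 was the most abundant member of the whole list by mean FPKM. It stood at 12.8, 16.3 and 17.7 FPKM in the GFP-labelled and at 16.5, 25.9 and 32.02 FPKM in the Cre-labelled libraries. Cre-labelled library 1 thus lay within the GFP-labelled range while the other 2 lay above it (log2 difference 0.63 ± 0.23, SE; 95% interval 0.10 to 1.17; edgeR adjusted p = 0.225), and the difference was 0.42 without Cre-labelled library 3. Egr2, better known from myelinating Schwann cells and the hindbrain, was the least abundant member, at 0.162, 0.120 and 0.111 FPKM against 0.320, 0.233 and 0.346 FPKM. Its groups did not overlap, but it rests on 20 to 75 counts per library, fewer than for any other member with counts in all 6 libraries (log2 difference 1.14 ± 0.36, SE; edgeR adjusted p = 0.179). Egr3 stood at 1.38, 0.777 and 1.06 FPKM against 0.976, 0.930 and 2.10 FPKM, and Egr4 at 1.10, 1.22 and 1.35 FPKM against 0.793, 1.64 and 2.12 FPKM. Both had log2 differences near 0.3 with wide intervals, -0.56 to 1.11 for Egr3 and -0.54 to 1.11 for Egr4, and Egr4 was lowest of all in Cre-labelled library 1.

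The Nr4a genes encode orphan nuclear receptors that need no ligand. Nr4a1 (Nur77) stood at 5.35, 7.79 and 8.43 FPKM against 7.04, 11.2 and 17.5 FPKM (log2 difference 0.69 ± 0.31, SE; edgeR adjusted p = 0.313; 0.32 without Cre-labelled library 3). Nr4a3 (NOR-1) was at 1.72, 1.61 and 1.69 FPKM in the GFP-labelled libraries, within 1.07-fold of each other, but at 1.24, 1.65 and 3.20 FPKM in the Cre-labelled ones, a 2.58-fold range. Nr4a2 (Nurr1) stood at 1.14, 0.600 and 0.816 FPKM against 0.613, 1.23 and 1.58 FPKM. In all 3 genes Cre-labelled library 3 was the highest of the 6 and Cre-labelled library 1 the lowest of its group, and the groups overlapped; the adjusted p of Nr4a2 and Nr4a3 were 0.656 and 0.740 (edgeR).

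Arc and Npas4 are the members most restricted to neurons. Arc, a capsid-like protein that removes AMPA receptors from synapses, stood at 6.02, 2.88 and 4.20 FPKM against 5.35, 6.13 and 7.99 FPKM. The groups overlapped, since GFP-labelled library 1, where Fos was lowest, had the highest Arc of its group (log2 difference 0.53 ± 0.26, SE; edgeR adjusted p = 0.350). It was 0.83 without that library and 0.31 without GFP-labelled library 2. Npas4, a factor induced by calcium entry that shapes inhibitory synapses, stood at 2.59, 2.91 and 2.83 FPKM against 4.34, 3.73 and 3.51 FPKM. Its groups did not overlap, and both were tight. The log2 difference was 0.43 ± 0.11 (SE; 95% interval 0.17 to 0.69; edgeR adjusted p = 0.136), 1.35-fold. Unlike Fos, Npas4 was highest in Cre-labelled library 1 and lowest of its group in library 3. Npas4 (ENSMUSG00000045903) lies at chr19:4984355-4990316.

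Of the genes that end the response, Dusp1, the phosphatase that inactivates MAP kinases in the nucleus, stood at 2.91, 4.32 and 3.71 FPKM against 4.62, 6.44 and 6.55 FPKM. Zfp36 (tristetraprolin), which marks AU-rich mRNAs for decay, stood at 1.20, 1.39 and 1.18 FPKM against 1.46, 2.25 and 1.97 FPKM. The groups of both were apart, narrowly in Cre-labelled library 1 (log2 differences 0.65 ± 0.19 and 0.55 ± 0.21, SE; edgeR adjusted p = 0.158 and 0.245). The gene model of Dusp1 in the table (chr17:26505590-26562128) overlaps the start of Ergic1 on the other strand. Ergic1 had 6026 to 9163 counts per library against 489 to 1379 for Dusp1, and whether strand was used in counting is not given in the sources used here. Dusp6, the cytoplasmic ERK phosphatase, stood at 4.86, 3.95 and 4.34 FPKM against 4.25, 5.86 and 6.66 FPKM (edgeR adjusted p = 0.407). Sik1, a kinase that restrains CREB coactivators, stood at 6.05, 8.35 and 9.24 FPKM against 5.11, 7.99 and 13.0 FPKM. It thus had both its lowest and its highest value in Cre-labelled libraries (log2 difference 0.11 ± 0.31, SE; 95% interval -0.62 to 0.83). Trib1, a pseudokinase, stood at 1.82, 2.18 and 1.75 FPKM against 1.48, 1.79 and 1.70 FPKM (log2 difference -0.24 ± 0.14, SE; edgeR adjusted p = 0.427).

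The 2 Gadd45 proteins, stress sensors that also promote DNA demethylation at neuronal genes, were higher in Cre-labelled library 1 than in the other libraries. Gadd45g stood at 5.77, 5.71 and 7.30 FPKM against 13.7, 11.4 and 10.8 FPKM. The widest spread within a group was 1.28-fold, against 1.85-fold between the groups (log2 difference 0.89 ± 0.15, SE; 95% interval 0.53 to 1.24; edgeR adjusted p = 0.0705). Gadd45b stood at 2.06, 1.61 and 1.59 FPKM against 3.47, 1.96 and 2.55 FPKM, where Cre-labelled library 2 fell inside the GFP-labelled range (0.55 ± 0.26, SE; edgeR adjusted p = 0.325; 0.33 without Cre-labelled library 1). Gadd45g (ENSMUSG00000021453) lies at chr13:51846678-51848468.

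Among the other bZIP factors, Crem, whose short form ICER represses CREB targets, was the only member with a lower level in the Cre-labelled libraries at an unadjusted p under 0.05. It stood at 2.57, 1.19 and 1.56 FPKM against 1.23, 0.963 and 1.11 FPKM, and its highest value was in GFP-labelled library 1, the library with testis transcripts. Crem is known to be abundant in male germ cells. The log2 difference was -0.72 ± 0.27 (SE; edgeR adjusted p = 0.239) and -0.36 without that library. The part of testis transcripts in the level of Crem was not tested. Atf3, a stress-induced factor, was listed at 0 counts in GFP-labelled library 1 and stood at 0.663 and 0.700 FPKM in the other 2, against 0.679, 0.741 and 1.12 FPKM. That library had 4 genes at 0, Atf3 among them, that had at least 50 counts in each other library. Counted the same way, the other libraries had 0 to 3 such genes, with 3 in Cre-labelled library 1. Without GFP-labelled library 1 the log2 difference of Atf3 was 0.28, against 0.86 with it. Maff, a small Maf protein, stood at 0.676, 0.657 and 0.536 FPKM against 0.556, 1.20 and 1.24 FPKM, high in Cre-labelled libraries 2 and 3 alone. Nfil3, a repressor linked to the clock, stood at 2.52, 2.89 and 3.11 FPKM against 3.57, 3.29 and 3.02 FPKM (log2 difference 0.17 ± 0.16, SE).

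The Klf factors, which in brain are prominent in vessels, had the order of Fos within the Cre-labelled group but log2 differences below 0 (-0.15 ± 0.29 for Klf2 and -0.19 ± 0.37 for Klf4, SE). Klf2 stood at 2.76, 2.14 and 2.72 FPKM against 1.48, 2.53 and 3.03 FPKM, and Klf4 at 3.05, 1.85 and 1.37 FPKM against 1.18, 1.77 and 2.67 FPKM. Both were lowest of all in Cre-labelled library 1. The 12 endothelial markers summed there to 190 CPM, against 191, 204 and 233 CPM in GFP-labelled libraries 1 to 3. In Cre-labelled libraries 2 and 3 they summed to 240 and 270 CPM. Across the GFP-labelled libraries Klf4 fell as this sum rose. The part of vessels in the levels of Klf2 and Klf4 was not tested. Ier2, a short-lived nuclear protein, stood at 1.11, 1.85 and 2.03 FPKM against 2.24, 2.94 and 2.72 FPKM, with groups apart (log2 difference 0.62 ± 0.28, SE; edgeR adjusted p = 0.302; 0.40 without GFP-labelled library 1). Inhba, which encodes the activin βA subunit, stood at 0.173, 0.192 and 0.232 FPKM against 0.229, 0.278 and 0.297 FPKM, with GFP-labelled library 3 just above Cre-labelled library 1. The opposite-strand gene B230303A05Rik overlaps it, with 161 to 265 counts per library against 56 to 121 for Inhba. Ier5, Csrnp1 and Arl4d lay between 1.54 and 4.47 FPKM in every library, with overlapping groups and log2 differences of -0.0082 ± 0.14, -0.16 ± 0.20 and -0.17 ± 0.26 (SE). Arl4d, a small GTPase of the Arf family, was lowest in GFP-labelled library 2 at 1.84 FPKM. Csrnp1, a nuclear protein, shares part of its locus and its strand with the microglial gene Cx3cr1 in the table.

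**Figure D3:**
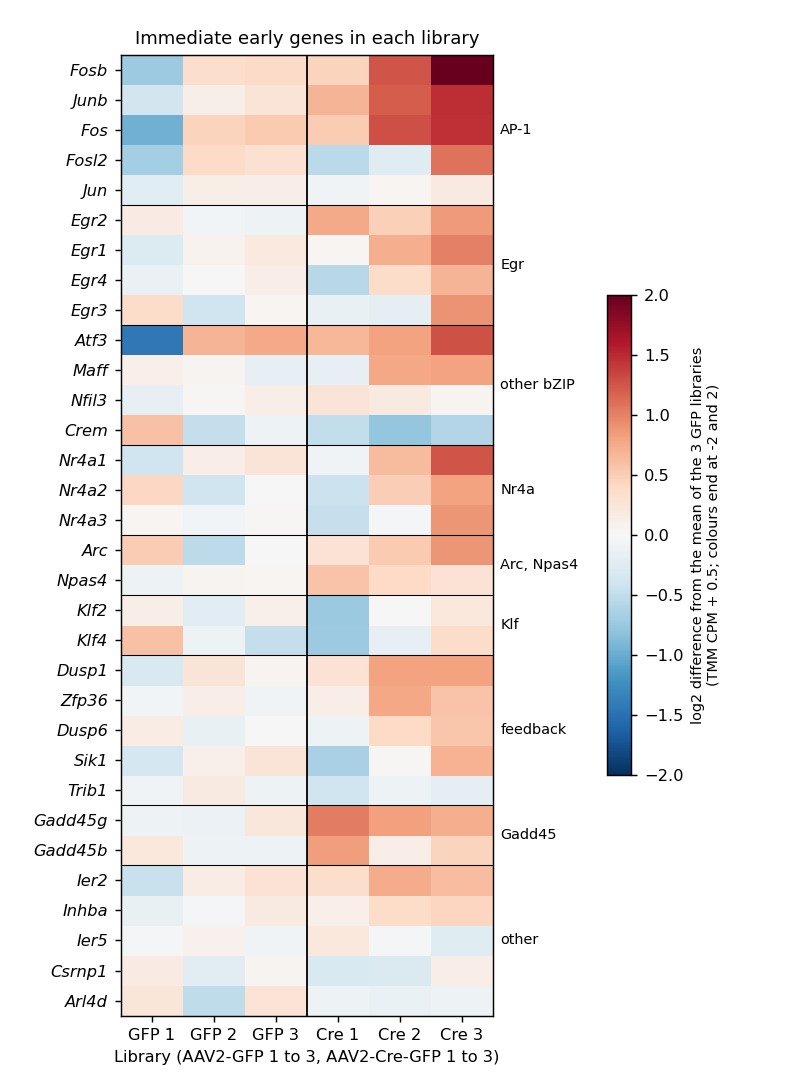
Each immediate early gene (rows, by family) in each library (columns), as the log2 difference of TMM-normalised CPM from the mean of the 3 GFP-labelled libraries. Red dominates Cre-labelled library 3 and, less so, library 2, whereas library 1 is mixed, with Gadd45g, Gadd45b and Egr2 high and Sik1, Egr4, Klf2 and Klf4 low.

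The members did not share 1 order across the Cre-labelled libraries. Cre-labelled library 3 held the highest value of the 6 libraries for 20 of the 32 members, where it did so for 17.0% of all genes tested, and Cre-labelled library 1 held it for 5 (Npas4, Gadd45g, Gadd45b, Nfil3 and Ier5), where it did so for 24.2% of all genes. GFP-labelled library 1 held the lowest value for 13 members, against 23.8% of all genes. Library 3 was the highest and library 1 the lowest of the Cre-labelled libraries for 19 members (59.4%), against 17.3% of all genes tested. For 12 of those 19, GFP-labelled library 1 was also the lowest of its group: Fos, Fosb, Fosl2, Jun, Junb, Atf3, Egr1, Egr4, Nr4a1, Dusp1, Sik1 and Inhba (37.5%, against 6.75% of all genes). The numbers of members above every GFP-labelled library were 12, 19 and 25 in Cre-labelled libraries 1, 2 and 3. The corresponding shares of all genes tested were 35.8%, 31.2% and 32.9%, so in library 1 the members' 12 of 32 was close to the share of all genes. The median difference from the GFP-labelled mean was -0.016, 0.38 and 0.69 in log2 for Cre-labelled libraries 1 to 3, while the median of all genes tested was within 0.01 of 0 in each. Within the groups the members also varied more than most genes, with a median biological coefficient of variation of 28.0% against 18.9% over all genes tested, from 10.98% for Jun to 92.9% for Atf3.

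Because Cre-labelled libraries 2 and 3 carried kidney transcripts, the values were also taken with library 1 as the only Cre-labelled library. The spread between the GFP-labelled libraries was then assumed for it. Against the 3 GFP-labelled libraries the median over the members was -0.0088, with 16 above and 16 below 0. Against GFP-labelled libraries 2 and 3, which leaves out the testis library too, it was -0.024. In that setting, with 2 libraries against 1, edgeR called 4 members (12.5%, against 4.81% of all genes tested): Gadd45g (1.01) and Gadd45b (1.05) were higher, and Fosl2 (-0.89) and Sik1 (-0.84) lower. The log2 differences of Junb, Npas4 and Egr2 were 0.52, 0.54 and 1.39 there, whereas those of Fos, Fosb, Dusp1 and Egr1 were 0.041, 0.094, 0.15 and -0.096. Without Cre-labelled library 1 the median was 0.52 and edgeR called 2 members, Junb (1.36) and Egr1 (0.88), with adjusted p of 0.0298 and 0.0488 (6.25% of the members, against 1.36% of all genes). Without Cre-labelled library 3 the median was 0.28, and 4 members had an unadjusted p under 0.05 (12.5%, against 12.7% of all genes): Junb, Npas4, Dusp1 and Gadd45g.

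**Figure D4:**
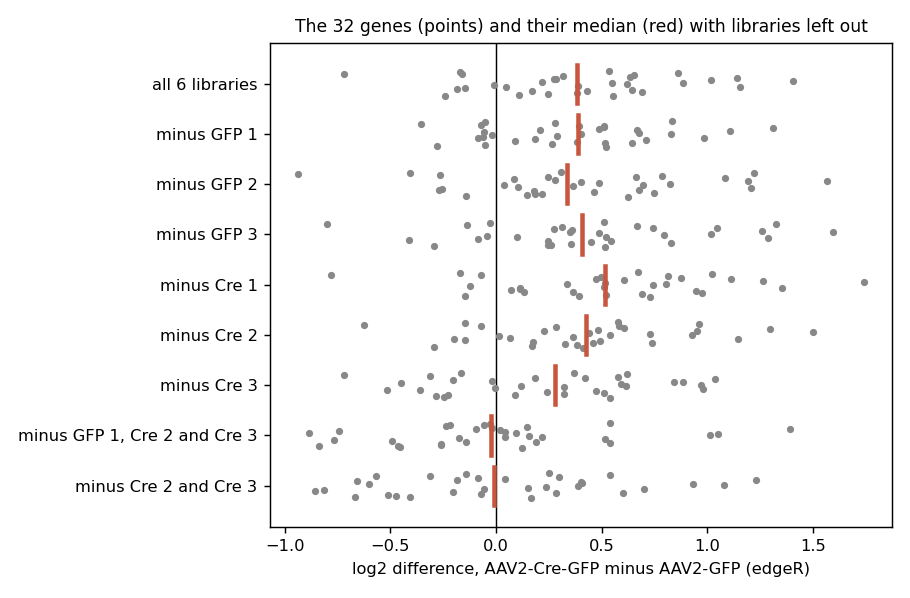
Log2 differences of the 32 genes (points) and their median (red) with all libraries and with libraries left out. The median lies between 0.28 and 0.52 with any single library left out, and near 0 when Cre-labelled libraries 2 and 3 are left out together.

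The other genes of the pathway had medians near or below 0. Of 27 genes that carry the signal from the membrane (MAP kinases, calcium-dependent kinases, adenylyl cyclases, channels), none passed in edgeR, and 24 had a log2 difference below 0 (median -0.097). At an unadjusted p under 0.05, 10 were lower and 1 higher, and DESeq2 called 6 lower. For this and the next 2 lists, the shares of all genes tested were 9.11% lower and 8.11% higher. With DESeq2 they were 4.91% lower and 3.12% higher among the genes it adjusted. Prkaca, the catalytic subunit of protein kinase A, stood at 85.2 against 68.9 FPKM on average, Camk4, the kinase that phosphorylates CREB in the nucleus, at 3.17 against 2.14 FPKM, and the adenylyl cyclase gene Adcy8 at 6.52 against 5.40 FPKM (edgeR adjusted p = 0.0705, 0.103 and 0.125). The groups of these 3 did not overlap, with the Cre-labelled libraries lower, as for 8.8% of all genes tested. Of 22 nuclear regulators (CREB and its coactivators, SRF and its partners, MEF2 and NFAT factors), none passed in edgeR or DESeq2, and 1 was higher and 1 lower at an unadjusted p under 0.05. Nfatc3, Mef2d and Crebbp had the smallest p, with log2 differences of 0.23, -0.18 and -0.15. Of 37 tested other early response genes, none passed in edgeR, 6 were higher and 1 lower at an unadjusted p under 0.05, DESeq2 called 5 higher and 1 lower, and the median was 0.052. The 3 with the smallest p were Jund, Per2 and Ifrd1. Per2, which the clock list below also holds, stood at 6.04 against 9.11 FPKM (edgeR adjusted p = 0.0705), and Ifrd1 at 2.60 against 3.94 FPKM (edgeR adjusted p = 0.0950). Jund, the constitutive Jun protein, stood at 53.7 against 40.6 FPKM (edgeR adjusted p = 0.0705). Jund thus lay on the other side from Junb, with a log2 difference of -0.44.

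Late response genes, the targets through which activity acts on synapses, lay mostly below 0. Of 28 tested, none passed in edgeR, 19 had a log2 difference below 0, 8 were lower and 2 higher at an unadjusted p under 0.05, and DESeq2 called 5 lower and 1 higher (median -0.21). Over all genes tested, 9.11% were lower and 8.11% higher at that p. DESeq2 called 4.91% lower and 3.12% higher among the genes it adjusted. Nptxr, the neuronal pentraxin receptor, stood at 77.7 against 54.0 FPKM, Vgf, a neuropeptide precursor, at 72.6 against 52.5 FPKM, and Cdkn1a, the p53 target p21, at 1.65 against 3.19 FPKM (edgeR adjusted p = 0.0705, 0.0793 and 0.0705). All 12 pan-neuronal markers also had log2 differences below 0, and they summed to 5926 to 6076 CPM in the GFP-labelled and to 5055 to 5444 CPM in the Cre-labelled libraries; their part in these values was not tested.

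Of the lists for states of the tissue, the glucocorticoid-responsive one lay on the side of the members, and the heat shock and clock lists had medians of 0.073 and -0.081. Beside the counts below, 8.11% of all genes tested were higher and 9.11% lower at an unadjusted p under 0.05. DESeq2 called 3.12% higher and 4.91% lower among the genes it adjusted. Of 15 glucocorticoid-responsive genes, which include the member Dusp1, 14 lay above 0 (median 0.33), none passed in edgeR, 5 were higher at an unadjusted p under 0.05, and DESeq2 called 5. They also include Per1, Sgk1, Errfi1 and Klf9 of the other early response genes. Their summed level was 540 to 616 CPM in the GFP-labelled libraries. It was 658, 708 and 792 CPM in Cre-labelled libraries 1 to 3, the order that Fos has there. Tsc22d3 (GILZ), a direct target of the glucocorticoid receptor, stood at 13.6 against 19.4 FPKM (log2 difference 0.47 ± 0.060, SE; edgeR adjusted p = 0.0694), and Mt2, a metallothionein shared with metal response, at 69.6 against 104 FPKM. Cdkn1a is the third gene with the smallest p in that list. Of 12 heat shock genes, none passed in either test and 1 was higher at an unadjusted p under 0.05 (Hspa1b, log2 difference 0.48), with Dnajb1 and Hspe1 next at 0.16 and 0.23. Of 15 clock genes, none passed in edgeR, 2 were higher and 3 lower at an unadjusted p under 0.05, and DESeq2 called 1 higher and 2 lower. Beside Per2, Nr1d1 (REV-ERBα) had a log2 difference of -0.36 and Bhlhe41 of -0.27. The part of these lists in the levels of the immediate early genes was not tested.

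Blood markers differed in the same direction: the sum over 10 genes was 269 to 291 CPM in the GFP-labelled group and 409, 439 and 579 CPM in the Cre-labelled group, with the haemoglobin genes Hbb-bs and Hbb-bt at log2 differences of 0.95 and 0.79. The 10 ependymal and choroid plexus markers summed to 145 to 158 against 187 to 236 CPM (Foxj1 at 0.53, Ccdc153 at 0.51), with 2 of 10 below 0. Microglial markers summed to 358 to 401 against 398 to 422 CPM (Trem2 at 0.38, Itgam at 0.20), but 5 of the 12 lay below 0, Aif1 lowest at -0.89. Endothelial markers overlapped as given above (Ly6c1 at 0.56, Pecam1 at 0.40), with 5 of 12 below 0 and a median of 0.055. Mural markers summed to 244 to 292 against 252 to 307 CPM (Tagln at 0.90, Kcnj8 at 0.55; 3 of 10 below 0), and meningeal ones to 170 to 175 against 164 to 208 CPM (Dcn at 0.58; 3 of 10 below 0). The meningeal list also holds Slc22a6, at 2.36, a gene that kidney expresses strongly. Astrocyte markers summed to 4625 to 4765 against 4590 to 5044 CPM (S100b at 0.46, Slc1a2 at -0.21), with 3 of 10 below 0. Oligodendrocyte markers summed to 2586 to 3136 against 2641 to 3129 CPM (Cspg4 at -0.21, Pdgfra at -0.086), with 4 of 12 above 0 and 8 below. Among neuronal markers, Rbfox3 and Syn1 were at -0.34 and -0.60, and among PVH markers Crh and Otp at -0.87 and -0.64. Of the 10 PVH markers, 9 lay below 0 and 1 above. None of these marker genes passed in edgeR, and at an unadjusted p under 0.05, 8 of 12 pan-neuronal, 4 of 10 PVH, 8 of 9 tested blood and 7 of 10 ependymal markers differed, the first 2 lists lower and the last 2 higher. Over all genes tested, 9.11% were lower and 8.11% higher at that p. Of 8 gene models tested for the kind of RNA captured (ribosomal, mitochondrial and other), 6 were higher and 1 lower at an unadjusted p under 0.05. The ribosomal RNA model CT010467 stood at 2072 to 2219 CPM in the GFP-labelled libraries and at 17633, 13492 and 7301 CPM in Cre-labelled libraries 1 to 3, highest where the members were lowest of that group. With it went Lars2, at a log2 difference of 1.68 (edgeR adjusted p = 0.0705), and a smaller CT010467 model at 1.14. The part of blood, of other organs and of RNA kind in the members' values was not tested.

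**Figure D5:**
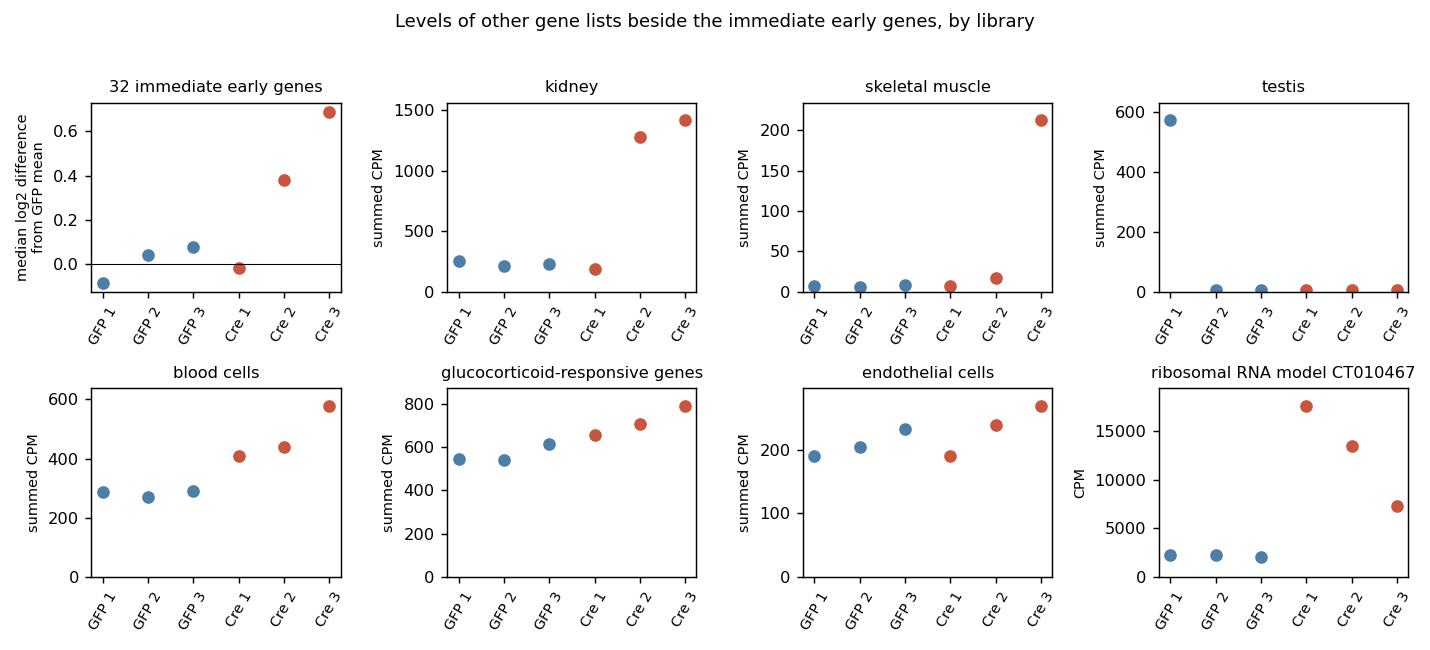
The median log2 difference of the 32 genes from the GFP-labelled mean in each library, beside the summed CPM of 6 gene lists and the CPM of a ribosomal RNA model. Cre-labelled library 3 has the highest member median (0.69) and the highest kidney (1419 CPM), muscle (212 CPM) and blood (579 CPM) sums, while the ribosomal RNA model is highest in Cre-labelled library 1.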

How the data were processed

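RNA of 6 PVH samples was made into poly(A)-selected, dUTP-marked libraries, per the labels' protocols. The tools named, per the submitters' processing notes, are HISAT2, StringTie and cutadapt, with build mm9; their versions, the counting step, and any use of strand or molecular identifiers in counting are not stated there. Of 35024 gene identifiers shared with GENCODE M21 (GRCm38), 87.1% have identical positions in the deposited table, as do 29 of the 32 members, so positions are given as GRCm38. The authors deposited whole-number counts per gene, not normalized, and FPKM values, which scale counts by gene length and library total. FPKM values and their ranges come from that table; the main test is on the counts.

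Counts were tested over all 20865 genes left by filterByExpr (minimum count 10) with edgeR 4.0.16 in R 4.3.3: TMM normalization, quasi-likelihood test, no covariates, two-sided, Benjamini-Hochberg adjustment over all genes, threshold 0.05. Standard errors come from the F statistic. DESeq2 1.42.0, limma 3.58.1 on log2(FPKM + 0.5) or log2(FPKM + 0.1) over genes whose mean reached 1 FPKM (which shrinks the differences of low genes), no filter, a replicate block and libraries left out were alternatives; leaving out Cre-labelled libraries 2 and 3 alone was chosen after seeing the data. The fits were tested on simulated data. All pairs of libraries differed beyond sampling noise (chi-square per gene at least 11.4 over genes with 20 or more counts). Members, lists and tests were chosen with earlier results of these data known. All members are given; of each other list, the genes with the smallest p (3 per pathway or state list, 2 per cell type list). Motifs were searched in the 250 bases before the RefSeq start.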

Additional observations from a re-analysis of the deposited data

How the results depend on the processing

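Of the 32 members, 17 kept the sign of their log2 difference under all of the 13 alternatives that tested them (limma tested 27) and 15 did not (41 of 406 member values changed sign); the causes were not tested. The number of all genes past the threshold was 2; it was 1322 with DESeq2, 1 with no filter, 15 with limma on log2(FPKM + 0.1), 1059 without 3 libraries (GFP-labelled 1, Cre-labelled 2 and 3), 4 without Cre-labelled libraries 2 and 3, and 1 to 296 leaving out 1 library. Of the members, 4 passed with DESeq2 and 0 to 2 leaving out 1 library. At an unadjusted p under 0.05 there were 10 members (31.3%, against 17.2% of all genes), 3 without Cre-labelled libraries 2 and 3 (9.38%, against 9.38%), and 4 to 14 leaving out 1 library, lowest without Cre-labelled library 3 (12.5%, against 12.7%) and highest without Cre-labelled library 1 (43.8%, against 15.7%). The median over members was -0.024 without 3 libraries (GFP-labelled 1, Cre-labelled 2 and 3), -0.0088 without Cre-labelled libraries 2 and 3, and 0.28 to 0.52 leaving out 1. The library numbers did not pair the samples (correlations of same-numbered deviations -0.044, 0.012 and -0.022); with a replicate block 12 members had an unadjusted p under 0.05 (37.5%, against 14.5% of all genes) and none passed.

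Signs changed as follows. Ier5 was at 0.011 with no filter and at 0.017 and 0.018 with limma (pseudocounts 0.5 and 0.1). Without Cre-labelled libraries 2 and 3, log2 differences were -0.60 for Fosl2, -0.058 for Jun, -0.20 for Maff, -0.18 for Egr3, -0.66 for Egr4, -0.072 for Nr4a1, -0.51 for Nr4a2, -0.47 for Nr4a3, -0.086 for Dusp6, -0.67 for Sik1, 0.24 for Ier5, -0.020 for Pecam1 and -0.83 for Slc22a6. Without GFP-labelled library 1 as well, they were -0.89 for Fosl2, -0.17 for Jun, -0.059 for Atf3, -0.14 for Maff, -0.096 for Egr1, -0.74 for Egr4, -0.26 for Nr4a1, -0.26 for Nr4a2, -0.46 for Nr4a3, -0.018 for Dusp6, -0.84 for Sik1, 0.22 for Ier5, -0.081 for Pecam1 and -0.74 for Slc22a6. Leaving out 1 library, the ranges that crossed 0 were -0.029 to 0.18 for Ruvbl2, -0.45 to 0.51 for Fosl2, -0.060 to 0.12 for Jun, -0.20 to 0.49 for Egr3, -0.020 to 0.61 for Egr4, -0.23 to 0.52 for Nr4a3, -0.36 to 0.11 for Klf2, -0.52 to 0.19 for Klf4, -0.29 to 0.39 for Sik1 and -0.12 to 0.12 for Ier5.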
